A study of Homo sapiens with 11 samples.

Results

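ERK feedback genes are genes whose transcription rises when the RAS-ERK signaling cascade is active, and many of them encode proteins that restrain the same cascade. The 10 genes described here, DUSP4, DUSP5, DUSP6, SPRY2, SPRY4, SPRED1, SPRED2, ETV4, ETV5 and PHLDA1, were found by their symbols in the joined count table, which holds 38557 genes. All 10 were present and all 10 passed the filter on low counts. Their RNA was measured by sequencing in 11 libraries of MOLM-13, a human acute myeloid leukemia line with a rearranged KMT2A gene. In the study, inhibitors of the KMT2A partner protein Menin and of the immunoproteasome were examined in KMT2A-rearranged leukemia.

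All libraries came from MOLM-13 cells that had been exposed for 72 h. Of these, 4 were from cells in the diluent DMSO, 4 from cells given the Menin inhibitor MI-503 at 1 µM, and 3 from cells given the same dose together with PR-957 at 100 nM. PR-957, also named ONX-0914, inhibits PSMB8, a catalytic subunit of the immunoproteasome, and cells that received both are referred to as the combination. The combination replicates are numbered 1, 2 and 4. No library analysed here received PR-957 alone, so that the effect of PR-957 could be read only in cells that also received MI-503. MOLM-13 is 1 cell line, and the labels do not say whether the libraries of a group came from separate cultures. The p-values therefore measure the spread between these libraries, which may be technical.

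In the RAS-ERK cascade, growth factor receptors such as FLT3 activate RAS, and RAS passes the signal through the kinases RAF and MEK to ERK. Active ERK induces dual-specificity phosphatases that remove phosphate from MAP kinases, Sprouty and SPRED proteins that act upstream at the level of RAS and RAF, and ETS transcription factors of the PEA3 family. Because the RNAs of these genes turn over quickly, their levels are widely used as a readout of ERK output in leukemia and other cancers.

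Libraries held between 18.9 and 41.2 M counted fragments, and 14683 genes were tested. Combination replicate 1, the deepest library, stood apart from the other libraries of its group on the second principal component of log2 CPM (counts scaled to a common library total), with a coordinate of 14.8 against 22.02 and 22.5, so that results are also given without it. DMSO replicate 2 also stood apart from its group, with 5.87 on this component against 12.7 to 13.98 in the other DMSO libraries. The myeloid leukemia markers CD33, SPI1, FLT3, MPO, CEBPA, CSF3R and LYZ were expressed in every library, whereas CD14 stayed under 1 CPM throughout. The summed CPM of these 8 markers ranged from 1575 to 1668 in DMSO, from 2154 to 2288 in MI-503 and from 2260 to 4562 in the combination. The 8 did not move alike. With MI-503, 6 of the 7 tested were called higher, beside 22.0% of all tested genes, and FLT3 was called lower, beside 29.3%. FLT3 averaged 324, 230 and 193 CPM in DMSO, MI-503 and the combination, and MPO 114, 216 and 130 CPM. LYZ alone ranged from 599 to 2513 CPM over the combination libraries. Of 12 markers of other cell types, 9 stayed under 1 CPM in every library and MS4A1, PPBP and CDH5 were at 0 throughout. KRT8 and PECAM1 were among the exceptions. The summed CPM of these 12 was 55.6 to 68.6 in DMSO, 119 to 124 in MI-503 and 137 to 191 in the combination, with PECAM1, which myeloid cells also express, at a mean of 50.0, 109 and 161 CPM. The myeloid markers and PECAM1 thus moved with the treatments, and their part in the results on the feedback genes was not tested. In bulk RNA a smaller share of cells that express a gene and less of its RNA per cell cannot be told apart.

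Promoter sequence is shown for 3 members with matches to CGGAA, a form of the core that ETS factors, among them products of this gene group, bind. Other forms of the core were not searched and are not marked. The windows are the 250 bases before the RefSeq start site (GRCh38.p14). Windows were found for DUSP6, SPRY2, SPRY4, SPRED1, SPRED2 and PHLDA1, 6 of the 10 members. Capitals mark this form only, read on the printed strand as CGGAA, or on the opposite strand as TTCCG.
DUSP6, chr12:89352502-89352751, minus strand: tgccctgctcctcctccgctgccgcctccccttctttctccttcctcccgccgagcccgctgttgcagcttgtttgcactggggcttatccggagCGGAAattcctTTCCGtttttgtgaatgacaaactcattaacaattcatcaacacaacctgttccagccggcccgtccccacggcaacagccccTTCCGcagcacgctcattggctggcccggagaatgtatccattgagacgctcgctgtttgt
SPRY2, chr13:80341127-80341376, minus strand: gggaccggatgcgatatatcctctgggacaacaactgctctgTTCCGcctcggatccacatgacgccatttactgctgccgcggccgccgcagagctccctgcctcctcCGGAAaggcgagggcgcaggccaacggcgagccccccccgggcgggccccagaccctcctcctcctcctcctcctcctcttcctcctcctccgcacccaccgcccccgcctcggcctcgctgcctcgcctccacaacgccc
PHLDA1, chr12:76031777-76032026, minus strand: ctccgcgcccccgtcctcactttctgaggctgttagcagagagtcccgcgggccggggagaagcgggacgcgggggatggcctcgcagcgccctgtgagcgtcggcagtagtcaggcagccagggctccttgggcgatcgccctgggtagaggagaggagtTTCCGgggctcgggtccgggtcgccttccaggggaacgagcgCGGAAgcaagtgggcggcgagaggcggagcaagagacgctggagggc
DUSP6 held 3 matches, with their first bases 155, 144 and 61 bases before the start site. SPRY2 held 2, at 208 and 141 bases, and PHLDA1 held 2, at 89 and 47 bases. No match to CGGAA lay in the windows of SPRY4, SPRED1 and SPRED2, which may hold other forms of the core. CGGAA was present on either strand in 30.2% of all 34943 windows of the same length, so that a match in 3 of 6 windows is a description only. The AP-1 motif TGANTCA and the TATA box TATAAA, also searched on both strands, had no match in the 6 windows and occurred in 6.59% and 10.8% of all windows. The printed genes went in different directions in the combination, as the values below show, with DUSP6 and SPRY2 lower and PHLDA1 higher.

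Levels between genes were compared per length of exon, as TPM (counts divided by exon length and scaled to a common total). In DMSO, DUSP6 was highest at 34.1 ± 3.40 TPM (SD, n = 4). It was followed by SPRY2 at 27.2 ± 3.29, ETV4 at 26.9 ± 1.08, ETV5 at 20.0 ± 1.45 and SPRED2 at 15.03 ± 0.71 TPM. The lower members were DUSP5 at 7.37 ± 0.688, SPRED1 at 6.34 ± 0.302, SPRY4 at 3.06 ± 0.0533, PHLDA1 at 1.20 ± 0.225 and DUSP4 at 0.423 ± 0.115 TPM. The ranges of DUSP6 and SPRY2, and those of SPRY2 and ETV4, overlapped over the DMSO libraries, while all other neighbors in this order were separated. Among all tested genes, DUSP6 lay at the 74.4th percentile in DMSO and DUSP4 at the 9.77th.

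The order was kept in large part under treatment. In MI-503, DUSP6 was again highest at 34.4 ± 3.68 TPM (SD, n = 4), ETV4 stood before SPRY2, and only SPRY2 and ETV5 had overlapping ranges among neighbors. In the combination, DUSP6 led at 23.7 ± 0.641 TPM (SD, n = 3), and PHLDA1 at 3.86 ± 0.259 TPM stood above SPRY4 at 2.39 ± 0.253 TPM, with no overlap between the 2 genes. Neighbors with overlapping ranges in the combination were SPRY2 and ETV4, ETV5 and SPRED2, and SPRED1 and PHLDA1. DUSP4 was lowest in each group.

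**Figure D1:**
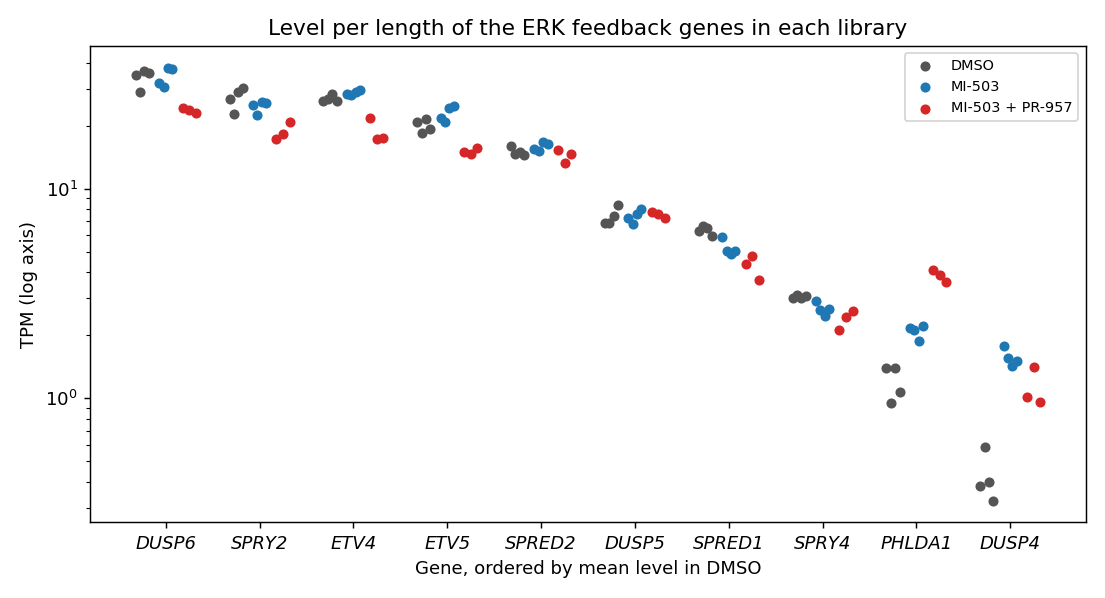
Level per length (TPM, log axis) of each ERK feedback gene in every library, with genes ordered by their mean in DMSO and points colored by group. DUSP6 has the highest mean in each group and DUSP4 the lowest, and PHLDA1 climbs from 1.20 TPM in DMSO to 3.86 TPM in the combination.

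MI-503 was compared with DMSO to see how the feedback genes stood after inhibition of Menin alone. With MI-503, DUSP4, PHLDA1 and ETV5 were higher and SPRED1 was lower, while DUSP5, DUSP6, SPRY2, SPRY4, SPRED2 and ETV4 did not pass the test. Thus 3 of 10 members were called higher, where 22.0% of all tested genes were, and 1 was called lower, where 29.3% were. Calls were made with edgeR's quasi-likelihood test at an adjusted p below 0.05, and 51.4% of all tested genes were called in either direction. The median log2 fold change of the members was 0.04, beside −0.03 over all tested genes. Without DMSO replicate 2, 2 members were called higher and 2 lower, as ETV5 lost its call and SPRY2 gained one, while the counts in both comparisons of the combination were unaltered. Without combination replicate 1, 4 were higher, ETV4 having joined them, and 1 was lower.

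The next comparison, of the combination with MI-503, asked how they stood once PR-957 was added. Here 8 of 10 members were called lower, where 23.8% of all tested genes were, and 1 was called higher, where 23.6% were. The 8 were DUSP4, DUSP6, SPRY2, SPRY4, SPRED1, SPRED2, ETV4 and ETV5, the higher one was PHLDA1, and DUSP5 did not pass. In either direction 47.4% of all tested genes were called. The median log2 fold change of the 10 members was −0.43, beside 0.00 over all tested genes. Without combination replicate 1, 7 members were called lower and 1 higher, SPRY4 being the one that dropped out.

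In the combination against DMSO, 6 of 10 members were called lower, where 32.8% of all tested genes were, and 2 were called higher, where 31.7% were. DUSP6, SPRY2, SPRY4, SPRED1, ETV4 and ETV5 were lower, DUSP4 and PHLDA1 were higher, and DUSP5 and SPRED2 did not pass, beside 64.5% of tested genes called in either direction. The median of the members was −0.49 on the log2 scale, beside 0.01 over all tested genes. Without combination replicate 1, 7 were lower, SPRED2 having joined them, and 2 were higher. The 3 comparisons share libraries, DMSO, MI-503 and the combination each entering 2 of them, so that they are not independent of one another.

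**Figure D2:**
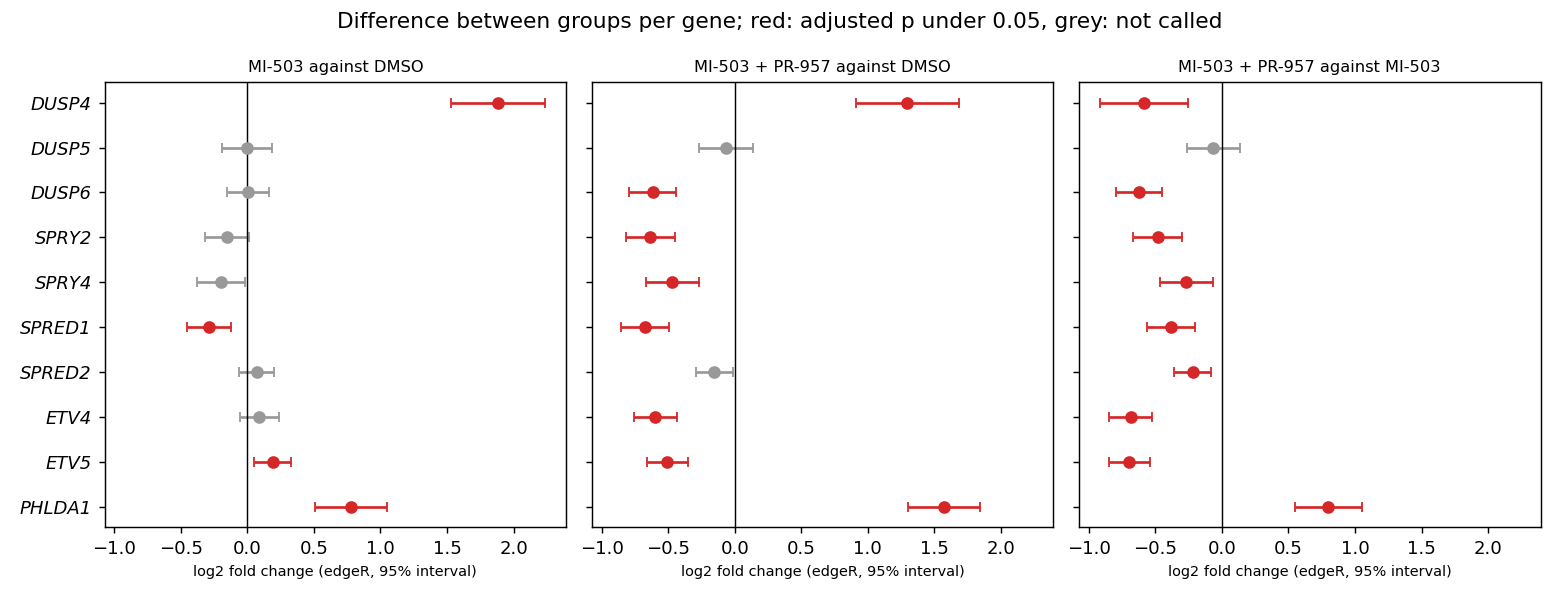
Log2 fold change of each ERK feedback gene from edgeR in the 3 comparisons, with a 95% interval computed from the F statistic of the test. Red points passed an adjusted p under 0.05 and grey points did not. With MI-503 alone 5 of the 10 intervals include 0, whereas 8 points are red and below 0 in the combination against MI-503 and PHLDA1 is red and above 0.

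Dual-specificity phosphatases dephosphorylate MAP kinases on both their threonine and tyrosine residues, and DUSP6 is the cytoplasmic phosphatase specific for ERK. DUSP6 (chromosome 12, 89347235 to 89352501, minus strand of hg38) was measured at 54.6, 44.7, 56.0 and 54.6 CPM in DMSO replicates 1 to 4. It was at 49.2, 47.1, 58.7 and 55.8 CPM in MI-503 replicates 1 to 4 and at 35.6, 33.6 and 33.3 CPM in combination replicates 1, 2 and 4. The DMSO and MI-503 libraries were mixed, while every combination library lay below all others. DUSP6 thus stood at 52.5 ± 5.22 CPM in DMSO (SD, n = 4) and at 52.7 ± 5.44 CPM in MI-503 (n = 4), and the log2 fold change between them was 0.00 (95% interval −0.15 to 0.16; adjusted p = 0.970, edgeR). In the combination it fell to 34.2 ± 1.22 CPM (n = 3). This was a log2 fold change of −0.62 against MI-503 (SE 0.08, adjusted p = 1.12e-05, edgeR) and of −0.62 against DMSO (SE 0.08, adjusted p = 4.62e-06, edgeR).

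DUSP4 (chromosome 8, 29333062 to 29350684, minus strand), an inducible nuclear phosphatase, went the other way with MI-503. Its DMSO libraries were at 1.49, 2.25, 1.52 and 1.23 CPM, its MI-503 libraries at 6.76, 6.02, 5.53 and 5.65 CPM and its combination libraries at 3.71, 4.97 and 3.46 CPM. The 3 groups did not overlap, with the combination between the others. DUSP4 rose 3.69-fold with MI-503, a log2 fold change of 1.88 (SE 0.17, adjusted p = 9.76e-08, edgeR). In the combination it changed by −0.59 against MI-503 (SE 0.16, adjusted p = 0.00519, edgeR) and still above DMSO by 1.30 on the log2 scale (SE 0.18, adjusted p = 8.23e-06, edgeR). Its counts in DMSO were only 26 to 49 fragments per library.

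DUSP5 (chromosome 10, 110497907 to 110511533, plus strand), a nuclear phosphatase that binds ERK, did not pass the test in any comparison. It was at 7.76 ± 0.655 CPM in DMSO (SD, n = 4), 7.75 ± 0.460 CPM in MI-503 (n = 4) and 7.37 ± 0.289 CPM in the combination (n = 3), with overlapping ranges. The 95% intervals of its log2 fold change ran from −0.19 to 0.19 for MI-503 against DMSO and from −0.26 to 0.13 for the combination against MI-503.

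Sprouty proteins bind adaptor proteins and RAF and limit the activation of RAS and RAF. SPRY2 (chromosome 13, 80335976 to 80341126, minus strand) was at 40.4, 33.4, 42.5 and 44.0 CPM in the DMSO libraries, at 36.7, 33.1, 38.3 and 36.6 CPM with MI-503, and at 24.2, 24.7 and 28.7 CPM in the combination. DMSO and MI-503 overlapped and the combination lay below both. The log2 fold change was −0.15 with MI-503 (SE 0.08, adjusted p = 0.121, edgeR). Against MI-503, SPRY2 fell by 0.48 in the combination (SE 0.09, adjusted p = 0.000224, edgeR), and against DMSO by 0.63 (SE 0.09, adjusted p = 6.06e-06, edgeR). Without DMSO replicate 2, the lowest DMSO library for SPRY2, the change with MI-503 was −0.23 and was called (adjusted p = 0.0104, edgeR).

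SPRY4 (chromosome 5, 142310435 to 142325021, minus strand) stepped down across the groups. It measured 9.35, 9.46, 9.11 and 9.30 CPM in DMSO, 8.79, 8.11, 7.60 and 7.90 CPM in MI-503 and 6.09, 6.77 and 7.44 CPM in the combination. None of the groups overlapped, yet the change with MI-503, −0.20, was just short of the threshold (SE 0.09, adjusted p = 0.0579, edgeR). SPRY4 was lower by 0.47 on the log2 scale in the combination than in DMSO (adjusted p = 0.000302, edgeR). Its change against MI-503 was −0.27 (SE 0.09, adjusted p = 0.0269, edgeR), and without combination replicate 1 it was −0.21 and no longer called (adjusted p = 0.0996, edgeR). Of its 7156 exon bases, 697, or 9.74%, are shared with the noncoding RNA gene SPRY4-IT1 on the same strand, and fragments that overlapped both genes had been left out.

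SPRED proteins bring neurofibromin, which switches RAS off, to the membrane. SPRED1 (chromosome 15, 38252087 to 38357249, plus strand) was at 24.2, 24.9, 24.4 and 22.2 CPM in DMSO, at 22.1, 19.1, 18.5 and 18.7 CPM with MI-503 and at 15.7, 16.5 and 12.9 CPM in the combination, with no overlap between groups. It was the only Sprouty or SPRED gene called in all 3 comparisons. The log2 fold change was −0.29 with MI-503 (SE 0.08, adjusted p = 0.00466, edgeR), a further −0.38 in the combination against MI-503 (SE 0.09, adjusted p = 0.00162, edgeR), and −0.67 against DMSO (SE 0.09, adjusted p = 2.67e-06, edgeR).

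SPRED2 (chromosome 2, 65307425 to 65432599, minus strand) moved least of the adaptors. Its level was 39.8 ± 2.42 CPM in DMSO (SD, n = 4), 41.9 ± 1.88 CPM in MI-503 (n = 4) and 35.7 ± 3.28 CPM in the combination (n = 3). In the combination its libraries lay between 32.1 and 38.5 CPM, below all MI-503 libraries, which began at 40.2 CPM, but overlapping DMSO. The change against MI-503 was −0.22 (SE 0.07, adjusted p = 0.0107, edgeR), and that against DMSO was −0.15 (SE 0.07, adjusted p = 0.0532, edgeR). Without combination replicate 1 the latter was −0.19 and was called (adjusted p = 0.0136, edgeR).

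ETV4 and ETV5 are PEA3 family ETS factors that carry ERK output into transcription and are themselves induced by it. ETV4 (chromosome 17, 43527843 to 43546340, minus strand) stood at 30.8, 30.8, 32.5 and 29.8 CPM in DMSO and at 32.3, 32.6, 33.6 and 33.4 CPM in MI-503. The combination libraries were at 23.7, 18.2 and 18.8 CPM, all below the other groups, with replicate 1 the highest. Against MI-503 the log2 fold change was −0.69 (SE 0.08, adjusted p = 1.73e-06, edgeR), and without combination replicate 1 it was −0.86 (adjusted p = 1.19e-10, edgeR). Against DMSO it was −0.60 (SE 0.08, adjusted p = 2.87e-06, edgeR), while MI-503 and DMSO differed by 0.09 (SE 0.07, adjusted p = 0.297, edgeR). Of the ETV4 exon bases, 54, or 1.99%, overlap DHX8 on the opposite strand, and counting had not used strand.

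ETV5 (chromosome 3, 186046314 to 186109089, minus strand) was at 36.7, 31.8, 37.2 and 33.1 CPM in DMSO, at 37.5, 36.4, 42.5 and 42.1 CPM in MI-503 and at 24.6, 23.2 and 25.4 CPM in the combination. The combination lay well below both other groups, which overlapped. Of the members, ETV5 had the largest fall in the combination against MI-503, −0.70 on the log2 scale (SE 0.07, adjusted p = 8.20e-07, edgeR). ETV4 followed closely at −0.69, and without combination replicate 1 the order reversed, with ETV4 at −0.86 and ETV5 at −0.72. Against DMSO the change of ETV5 was −0.51 (SE 0.07, adjusted p = 1.01e-05, edgeR). Its rise with MI-503 was small, 0.19 (SE 0.07, adjusted p = 0.0228, edgeR), and was not called when replicate 2 or 4 of DMSO, or replicate 3 or 4 of MI-503, was left out (adjusted p between 0.0711 and 0.0767, edgeR).

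PHLDA1, a pleckstrin homology domain protein induced by growth factors, was the only member called higher in all 3 comparisons. PHLDA1 (chromosome 12, 76025447 to 76031776, minus strand) measured 3.58, 2.39, 3.46 and 2.66 CPM in DMSO, 5.42, 5.35, 4.75 and 5.40 CPM in MI-503 and 9.82, 8.88 and 8.48 CPM in the combination. The groups did not overlap. It rose 1.72-fold with MI-503, a log2 fold change of 0.78 (SE 0.13, adjusted p = 8.02e-05, edgeR), and 1.74-fold again from MI-503 to the combination, 0.80 on the log2 scale (SE 0.12, adjusted p = 3.65e-05, edgeR). Against DMSO it was 2.98-fold higher in the combination (adjusted p = 1.09e-08, edgeR). DUSP4 and PHLDA1, the members that rose with MI-503 without overlap, were also the lowest in TPM in DMSO.

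**Figure D3:**
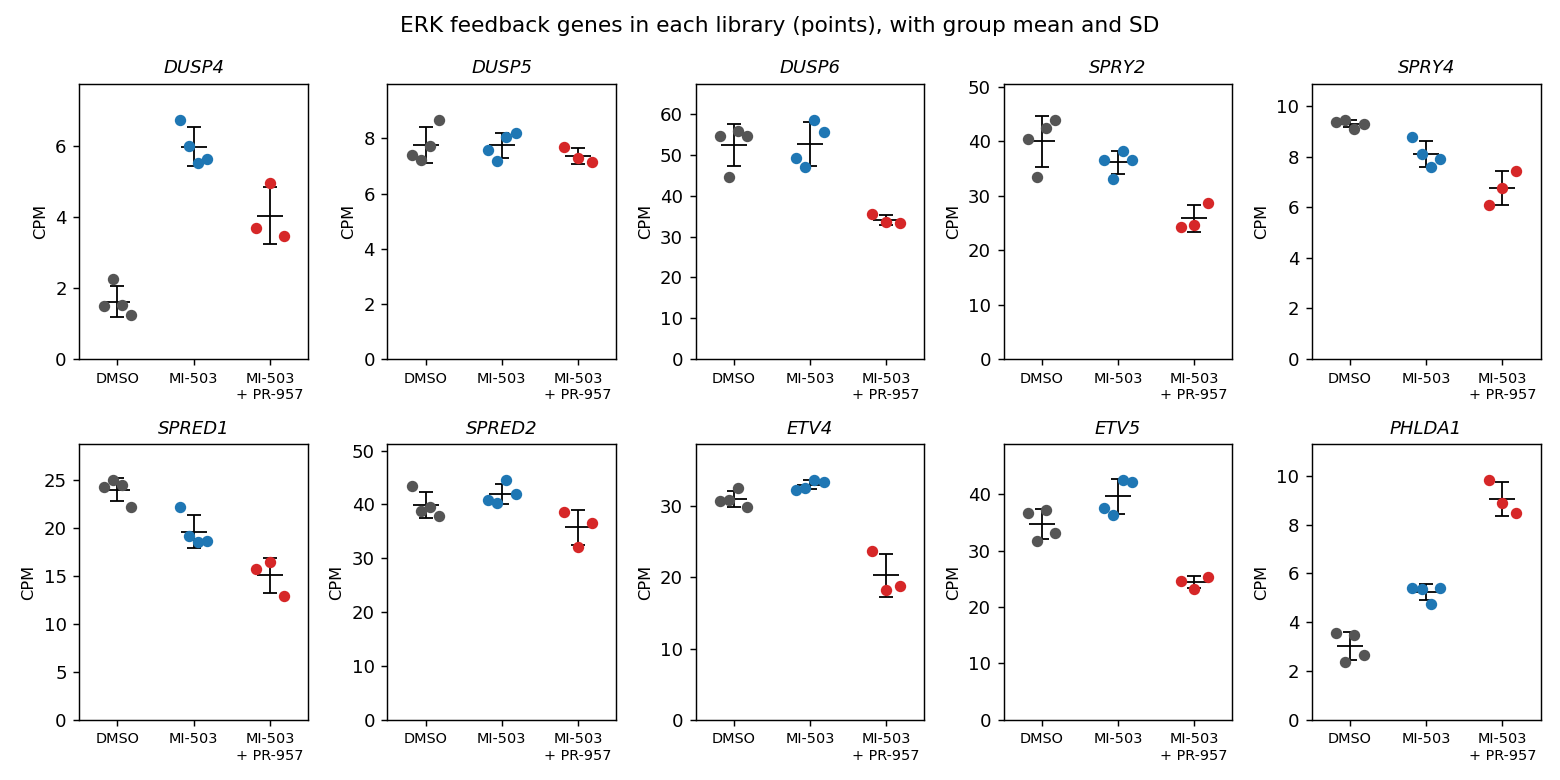
CPM of each ERK feedback gene in every library (points) by group, with the group mean and SD (black). For DUSP6, SPRY2, ETV4 and ETV5 the DMSO and MI-503 libraries lie together or close and the combination lies below, PHLDA1 climbs over the groups, and DUSP5 overlaps in all of them.

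Seen by range, the groups did not overlap for 4 of 10 members between MI-503 and DMSO, where 50.3% of all tested genes did not. Between the combination and DMSO 8 did not overlap, beside 60.5%, and between the combination and MI-503 9 did not, beside 47.6%. In the combination against MI-503 the changes of the members ran from −0.70 to 0.80 on the log2 scale. The median absolute log2 fold change of all tested genes was 0.23. By absolute change, DUSP4, DUSP6, ETV4, ETV5 and PHLDA1 lay between the 85.9th and the 92.4th percentile of tested genes. The other members lay between the 15.6th (DUSP5) and the 80.3rd (SPRY2). No member reached a 2-fold change, where 4.47% of all tested genes were called and changed at least 2-fold. DUSP4 alone passed 2-fold with MI-503, beside 5.56% of tested genes, and DUSP4 and PHLDA1 did so in the combination against DMSO, beside 11.9%.

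Genes with a like pattern were sought for each member among 10032 tested genes that averaged 5 CPM or more, as the 2 with the smallest root mean square difference of log2 CPM, each centered on its DMSO mean, over the 7 MI-503 and combination libraries. For DUSP6 these were ARRB1 (0.0900) and TLN2 (0.0922), and for SPRY2 they were JAG1 (0.0478) and LSM5 (0.0522). ETV4 was matched by INSIG1 (0.0383) and KCNQ5 (0.0494), and FOXA1 (0.0799) was among the 2 genes nearest to ETV5. SPRY4 had NME4 and ACPP nearest, SPRED1 had DYRK3 and C1GALT1, SPRED2 had FBXO25 and RPSAP58, and DUSP5 had REV1 and CHD1. PHLDA1 was nearest to C1orf54 (0.0875) and KCNE3 (0.108), whereas DUSP4 had no gene closer than LOC101928004 (0.218) and OLIG1 (0.222). DUSP4 had only 26 to 49 fragments per library in DMSO, 134 to 207 in MI-503 and 93 to 157 in the combination. The part of these low counts in its larger distances was not tested.

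Relatives of the members were described in the same way from a list of 11 genes of the phosphatase, Sprouty, SPRED and PEA3 families. Of its 8 tested genes, 2 were called higher and 3 lower with MI-503, and 2 higher and 4 lower in both comparisons of the combination. Of all tested genes, 22.0% were called higher and 29.3% lower with MI-503. The shares were 31.7% and 32.8% in the combination against DMSO, and 23.6% and 23.8% against MI-503. The list medians were −0.15, −0.38 and −0.26 for MI-503 against DMSO, the combination against DMSO and the combination against MI-503. ETV1, the remaining PEA3 factor, went from 2.71 ± 0.305 CPM in MI-503 (SD, n = 4) to 1.24 ± 0.289 CPM in the combination (n = 3), a log2 fold change of −1.08 (SE 0.17, adjusted p = 7.67e-05, edgeR). SPRY1 was low, at 1.05 ± 0.124 CPM in MI-503 (n = 4) and 0.515 ± 0.0743 CPM in the combination (n = 3), and fell by 1.03 on the log2 scale (adjusted p = 0.00370, edgeR). DUSP2, a nuclear phosphatase of immune cells, fell by 0.59 in the combination against MI-503 (adjusted p = 0.000188, edgeR). Its change with MI-503, −0.25 (adjusted p = 0.0310, edgeR), was not called under 11 of 19 alternatives. DUSP7, a cytoplasmic ERK phosphatase like DUSP6, was lower in all 3 comparisons, at 105 ± 1.72 CPM in DMSO (SD, n = 4), 88.0 ± 2.24 CPM with MI-503 (n = 4) and 70.7 ± 2.14 CPM in the combination (n = 3), with no overlap. The log2 fold change was −0.25 with MI-503 (adjusted p = 3.74e-05, edgeR), −0.31 in the combination against MI-503 (adjusted p = 1.09e-05, edgeR) and −0.56 against DMSO (adjusted p = 3.57e-09, edgeR).

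Other relatives went higher. DUSP3 rose in each comparison, by 0.12, 0.38 and 0.26 on the log2 scale for MI-503 against DMSO, the combination against DMSO and the combination against MI-503, the first of these not being called under 6 of 19 alternatives. DUSP10, which acts on p38 and JNK, rose by 0.38 with MI-503 (adjusted p = 0.000106, edgeR). DUSP1 was higher by 0.53 in the combination than in MI-503 (adjusted p = 0.00209, edgeR). Its change with MI-503 was −0.31 (adjusted p = 0.0399, edgeR), which was not called under 14 of 18 alternatives.

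Components of the cascade itself, from adaptors through RAS and RAF to ERK, made up a further list. Of 21 tested genes in a list of 23, 5 were called higher and 8 lower with MI-503, 5 higher and 7 lower in the combination against DMSO, and 6 higher and 4 lower against MI-503. The last counts became 6 higher and 7 lower without combination replicate 1, and 3 higher and 5 lower without combination replicate 2. Over all tested genes, 22.0% were called higher and 29.3% lower with MI-503. In the combination the shares were 31.7% and 32.8% against DMSO, and 23.6% and 23.8% against MI-503. List medians were −0.07, −0.07 and 0.02 in that order, and in the combination against DMSO the changes lay between −0.45 and 0.63. GAB2, a docking adaptor, rose by 0.29 on the log2 scale with MI-503, by 0.33 from MI-503 to the combination and by 0.63 over both (adjusted p = 3.65e-07, edgeR for the last). NRAS fell by 0.30 with MI-503 (adjusted p = 0.000104, edgeR) and by 0.15 more in the combination (adjusted p = 0.0322, edgeR). The scaffold KSR1 rose by 0.25 with MI-503 and stood 0.47 above DMSO in the combination, where the exchange factor SOS2 was 0.38 higher as well. Among the kinases, MAPK3 (ERK1) rose by 0.44 (adjusted p = 1.16e-05, edgeR) and MAP2K1 (MEK1) fell by 0.32 with MI-503 (adjusted p = 6.41e-06, edgeR). MAP2K2 (MEK2) was higher by 0.31 and RPS6KA3, a kinase downstream of ERK, lower by 0.29 in the combination than in MI-503. The phosphatase PTPN11 (SHP2), which promotes RAS activation, was lower by 0.30 in the combination than in DMSO and by 0.23 than in MI-503, and the RAS inactivator RASA1 was lower than in DMSO by 0.30.

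Other genes that respond to ERK, among them immediate early genes, were called lower mostly in the comparisons with DMSO. Of 12 tested genes in a list of 18, 8 were called lower and 0 higher by edgeR with MI-503, with 0 higher at an unadjusted p under 0.05, 0 by DESeq2 and 0 by limma-voom. In the combination 1 was higher and 6 were lower against DMSO, and 2 were higher and 2 lower against MI-503, or 4 and 2 without combination replicate 1. The shares of all tested genes called higher and lower were 22.0% and 29.3% with MI-503. They were 31.7% and 32.8% in the combination against DMSO, and 23.6% and 23.8% against MI-503. The medians of this list were −0.27, −0.27 and 0.04. EGR1, an immediate early transcription factor, averaged 16.9 ± 7.60 CPM over the DMSO libraries (SD, n = 4) and 2.48 ± 1.09 CPM over those with MI-503 (n = 4). Its log2 fold change was −2.81 (SE 0.30, adjusted p = 9.38e-07, edgeR). It stayed at 2.18 ± 0.353 CPM in the combination (n = 3). EGR3 also fell with MI-503, by 1.62 (adjusted p = 0.00285, edgeR), from a DMSO mean of only 0.588 CPM. MYC fell by 0.41 with MI-503 and by another 0.41 in the combination, to 372 ± 13.7 CPM (SD, n = 3).

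CCND1 and FOS differed between MI-503 and the combination. CCND1, the cyclin D1 gene, was at 14.7 ± 0.684 CPM in MI-503 (SD, n = 4) and at 7.92 ± 1.44 CPM in the combination (n = 3), a change of −0.89 (SE 0.11, adjusted p = 4.19e-06, edgeR). FOS went the opposite way, from 8.52 to 13.5 CPM over the MI-503 libraries to 14.05 to 19.4 CPM over the combination libraries, which did not overlap. Its log2 fold change was 0.74 (SE 0.18, adjusted p = 0.00294, edgeR). MCL1, which encodes a survival protein, was higher by 0.16 in the combination than in MI-503 (adjusted p = 0.00288, edgeR). It had fallen by 0.34 with MI-503 (adjusted p = 1.02e-06, edgeR). In the combination MCL1 was still lower than in DMSO, by 0.18 (adjusted p = 0.000899, edgeR).

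**Figure D4:**
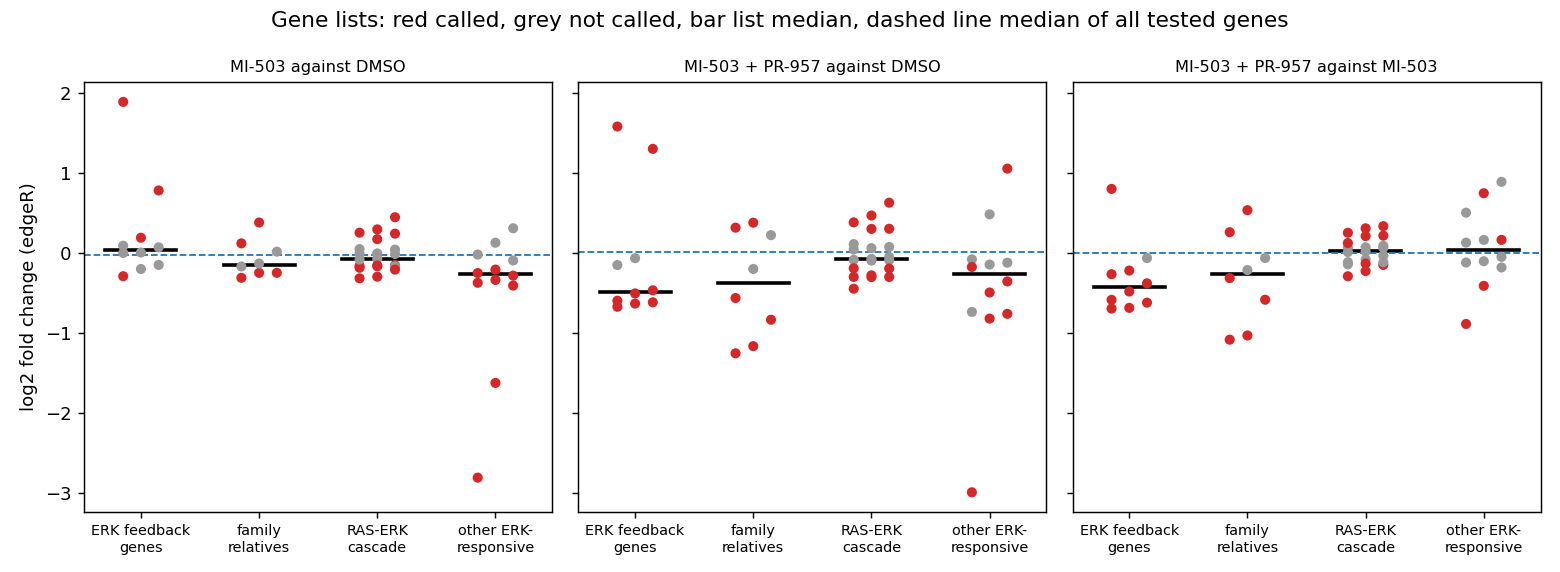
Log2 fold change (edgeR) of every tested gene in the ERK feedback group and the 3 other lists in each comparison. Red points were called and grey points were not, black bars are list medians and the dashed line is the median of all tested genes. In the combination against MI-503 the median is −0.43 for the feedback genes and −0.26 for the family relatives. It is 0.02 for the cascade and 0.04 for the other ERK-responsive genes, whose single values run from −0.89 to 0.89.

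The counting of fragments limited what could be said of some list genes. Each of the 10 members was annotated on 1 contig of hg38. The lists held 6 genes with copies on several contigs, DUSP8, DUSP16, HRAS, RPS6KA1, IER3 and PHLDA2, and none of the 6 reached more than 3 counts in any library. Since fragments that mapped to several places had been left out, low counts of these genes cannot be told apart from low expression, and none of them was tested.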

How the data were processed

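RNA of 11 MOLM-13 libraries (4 DMSO, 4 MI-503, 3 MI-503 + PR-957, grouped by the labels) had been sequenced as read pairs. Raw counts were deposited, 1 per gene and library, and the authors had made them with featureCounts 2.0.1 from hg38 RefSeq exons, unstranded and leaving out fragments that mapped to several places or overlapped several genes, per the file headers. The submitters' processing notes also name Trimmomatic 0.39, STAR 2.7.10a and DESeq2. A filter had been applied to the alignments by a rule that the headers do not state. The count tables also list the exon length of each gene. Deposited tables of differential expression hold the authors' log2 fold changes, standard errors and p-values and were not used.

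Of 38557 genes, 14683 passed filterByExpr (minimum count 10, minimum total 15) in edgeR 4.0.16 (R 4.3.3). The joined table differed from the single tables in 0 cells. A model of 3 group means, scaled by TMM (factors 0.956 to 1.06), was fitted to all 11 libraries, which left 8 residual degrees of freedom, and each contrast was tested by the two-sided quasi-likelihood F test, with p-values adjusted by Benjamini-Hochberg over the 14683 genes and a threshold of 0.05. Standard errors given beside edgeR results were computed as the absolute log2 fold change divided by the square root of the F statistic. The 95% intervals used these with a quantile of the t distribution. CPM are relative to TMM-scaled totals, and a prior count of 0.5 was added for log2 CPM. TPM were computed from counts and exon length, and their order within a library does not depend on the scaling factors. Alternatives used DESeq2 1.42.0 and limma 3.58.1, other scaling factors and filters, a replicate block, only the groups compared, and leaving out each library. The fit was tested on simulated counts with known changes. Figures were drawn with matplotlib 3.10.9.

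The named genes were all 10 members, and of each list and contrast the up to 3 called genes with the largest rise and the up to 3 with the largest fall. The 2 genes of most like pattern were named for each member with a mean of at least 1 CPM. A few genes under this rule are not reported here. The members and lists were chosen with earlier results of these data known. Promoter windows came from RefSeq (GRCh38.p14). The start site in that table lies 774 bases from the one in the counts for SPRY4 and 749 bases for SPRED1.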

Additional observations from a re-analysis of the deposited data

Results flagged for a closer look

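For DUSP6, DMSO replicate 2 was at 44.7 CPM, below the other 3 DMSO libraries, with a gap of 0.877 of the group's range. For PHLDA1, MI-503 replicate 3 was at 4.75 CPM, below the other MI-503 libraries, with a gap of 0.898 of the range. Both gaps exceed Dixon's 95% critical value for 4 libraries, which chance alone exceeds in about 1 in 20 groups. In all, 20 groups of 4 libraries were examined, and these 2 values were the ones set apart. Without DMSO replicate 2 the log2 fold change of DUSP6 with MI-503 was −0.06 and was not called (edgeR adjusted p = 0.448), and without MI-503 replicate 3 that of PHLDA1 stayed called.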

How the results depend on the processing

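Of 567 log2 fold changes of members recomputed under alternatives, 532 kept direction and call, 18 changed sign, 8 gained and 9 lost a call, and the cause was not tested. DUSP5 and DUSP6, both near 0 with MI-503, made up all sign changes. DUSP5 with MI-503 became 0.0262 with RLE factors, 0.0261 with DESeq2, 0.0612 with upper-quartile factors, 0.0184 without a filter, 0.0690 with the stricter filter (mean of at least 5 CPM), 0.0465 with only the groups compared and −0.0325 to 0.0551 without 1 library. DUSP6 with MI-503 was −0.0647 to 0.0590 without 1 library. DUSP5 in the combination against DMSO became 0.00324 with upper-quartile factors and 0.00523 with the stricter filter. With MI-503, the members called lower were 2 with the replicate block, and 1 to 2 without 1 library, and those called higher were 5 with only the groups compared. The replicate numbers were not taken to pair the samples, since 4 of 10 same-numbered pairs had a correlation of deviations of 0.1 or less (−0.252 to 0.285 over the 10, and −0.314 to 0.318 between other numbers). The 3 pairs of MI-503 and the combination were all above it (0.141 to 0.211), and the block changed no member's call between these groups. Under the block DUSP5 was 0.00125 and SPRY2 was called at −0.14 (edgeR adjusted p = 0.0474). In the combination against DMSO, members called higher were 1 with the stricter filter, which removed DUSP4. SPRY4 against MI-503 lost its call without a filter, with only the groups compared, and without MI-503 replicate 1 or 2 or combination replicate 1.

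Among list counts with MI-503, relatives called lower were 1 with RLE or upper-quartile factors, the stricter filter or DESeq2 and 1 to 3 without 1 library, and those higher were 1 to 2 without 1 library. Cascade genes called lower were 3 with upper-quartile factors or the stricter filter. Other ERK-responsive genes called higher were 1 without a filter, with the block or with only the groups compared, and 0 to 1 without 1 library. In the combination, the stricter filter left 2 relatives called lower in both comparisons and 1 called higher against MI-503. Other ERK-responsive genes called higher were 1 to 2 against DMSO without 1 library. Against MI-503, cascade genes called lower ran from 3 to 7 and those higher from 3 to 6 without 1 library. For other ERK-responsive genes called higher the range was 2 to 4. The 7 and 4 arose without combination replicate 1, and the 3 cascade genes called higher without combination replicate 2. Upper-quartile factors moved the higher share of all MI-503 calls from 42.9% to 54.2%. DUSP4, with 26 to 49 fragments in DMSO, is the member most limited by depth.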
